A study of Mus musculus with 4 samples.

Results

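The classical and nonclassical MHC class I genes and the antibody tag against the donor class I molecule H-2Kb were described in spleen cells of mice that had undergone allo-HCT. The members were 8 genes and 1 antibody tag, taken by name from the 32286 features of the count matrices, of which 1 was the tag and the rest genes. They were H2-K1, H2-D1 and H2-T23 (class I heavy chains), B2m (the light chain), Tap1 and Tap2 (the peptide transporter), Tapbp (tapasin, which loads peptide) and Nlrc5 (the class I transactivator). All 8 genes and the tag were counted in each of the 4 libraries. The tag was an oligo-labelled Ab (TotalSeq-B) against H-2Kb, the class I allele of the C57BL/6 donors, which the BALB/c recipients and the BALB/c-derived myelomonocytic line WEHI-3B lack.

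All 4 mice were lethally irradiated, received WEHI-3B AML cells with donor BM, and were given donor Tc 2 days later. In 2 mice BM and Tc came from Havcr2fl/fl donors, which carry floxed alleles of the TIM-3 gene and no cre. In the other 2 mice both grafts came from Havcr2fl/fl;E8icre/+ donors, in which the E8I enhancer of Cd8a drives cre so that recombination is meant for CD8+ cells. Cells were collected from the spleen on day 23, and 1 library per mouse was prepared by 10x Genomics 3′ chemistry, in which each captured molecule is counted once by its unique molecular identifier (UMI). According to the labels a pan-T cell kit was used, whereas the study's legend describes sorted donor Tc. The study's methods give 1 range of young adult age and pairs of either sex for its mice in general, and the labels name neither for these 4.

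After filtering, 11507 cells were analyzed, with 1204 to 4328 cells per library and a median of 5232 to 7454.5 gene UMIs per cell. Libraries shared 1 to 10 barcodes per pair before the cell filter and 1 to 6 after it. Of the cells, 6763 lay in T cell clusters (4258 CD8+ Tc and 1752 CD4+ Tc by their Cd8a, Cd8b1 and Cd4 UMIs) and 3079 in erythroid clusters, although the labels name T cells alone. The 6 T cell markers (Cd3e, Cd3d, Cd3g, Trac, Cd2, Lck) summed to 4853 to 5394 CPM (counts scaled to the total gene UMIs of the class) in T cells and to 7.23 to 10.5 CPM in erythroid cells, and none of the 6 was at 0. The 9 late erythroid markers, which are globins for the most part, summed to 1588 to 5299 CPM in T cells and 27512 to 175539 CPM in erythroid cells. Mean H2-K1 in T cells was 2957 CPM of all gene UMIs and 2965 CPM of the UMIs other than globin. Comparisons of CD8+ Tc and CD4+ Tc were also repeated without cells over 1% globin UMIs. The part of other erythroid RNA in the T cell values was not tested. Il3 and Hoxb8, which are active in WEHI-3B, had no UMI in any library. Values are given below in the order Havcr2fl/fl;E8icre/+ replicates 1 and 2, Havcr2fl/fl replicates 1 and 2. Havcr2 itself measured 61.2, 7.93, 54.8 and 115 CPM in CD8+ Tc. The library labelled Havcr2fl/fl;E8icre/+ replicate 1 was thus not below the controls, whereas replicate 2 of this label was below both. Which exons are deleted is not given in the sources used here. Why the 2 libraries of this label differed, and how far 3′ counts reflect the deletion, was not tested.

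Class I molecules consist of a polymorphic heavy chain and β2-microglobulin, and they leave the endoplasmic reticulum once the transporter and tapasin have supplied a peptide. They are carried by nearly all nucleated cells and presented to CD8+ Tc, and in allo-HCT differences in these alleles drive alloreactivity. Interferons raise the pathway through IRF1 and NLRC5, which act on shared promoter elements. H2-T23 encodes Qa-1, which presents leader peptides of other class I chains to NKG2A receptors.

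On GRCm38, H2-K1 lies at chr17:33996017-34000347 on the minus strand and H2-D1 at chr17:35262730-35267499 on the plus strand. H2-T23 lies at chr17:36029773-36032855 on the minus strand. The transport and loading genes lie in the same complex, Tap1 at chr17:34187553-34197225, Tap2 at chr17:34203527-34216321 and Tapbp at chr17:33915899-33929292, all on the plus strand. B2m at chr2:122147686-122153083 and Nlrc5 at chr8:94434356-94527272 lie outside of it. All 8 are annotated as protein coding. RefSeq promoter entries were matched for 6 of the 8 members, and Tap2 and Nlrc5 had no entry. The 200 bases before the RefSeq transcription start are shown for H2-K1, H2-D1 and B2m, because H2-K1 parted from the other 2 genes across the erythroid stages. The RefSeq start of H2-D1 lies downstream of the start of the gene span given above, so its window lies inside that span. H2-K1 had 2 annotated starts, and the first is shown. The window of the second held a further CCAAT, which began 6 bases before that start. Capitals mark matches on either strand to the interferon-stimulated response element (GAAA, 2 bases of any kind, GAAA), GAAGTGAAA (its form in class I heavy chain genes), GGGATTCCC (an NF-κB site), TGACG (the core of a CRE or X2 box) and CCAAT (the core of a Y box).

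H2-K1, chr17:34000348-34000547, minus strand: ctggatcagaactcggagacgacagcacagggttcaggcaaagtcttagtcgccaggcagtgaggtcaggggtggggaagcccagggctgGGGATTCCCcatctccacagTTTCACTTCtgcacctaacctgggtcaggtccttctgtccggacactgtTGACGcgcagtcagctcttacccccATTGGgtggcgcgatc
H2-D1, chr17:35262894-35263093, plus strand: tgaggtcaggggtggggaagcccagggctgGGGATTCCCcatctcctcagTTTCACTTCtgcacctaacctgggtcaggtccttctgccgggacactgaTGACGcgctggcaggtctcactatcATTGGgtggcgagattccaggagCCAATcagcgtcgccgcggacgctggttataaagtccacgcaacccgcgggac
B2m, chr2:122147487-122147686, plus strand: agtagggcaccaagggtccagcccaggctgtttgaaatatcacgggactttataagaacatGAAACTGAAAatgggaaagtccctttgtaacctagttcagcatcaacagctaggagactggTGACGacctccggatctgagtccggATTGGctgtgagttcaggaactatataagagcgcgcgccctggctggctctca

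H2-K1 and H2-D1 shared the order GGGATTCCC, GAAGTGAAA, TGACG and CCAAT, and from the first to the last of these 88 of 99 bases were the same (88.9%). Of all 32851 RefSeq promoter windows of this length, 0.213% held GGGATTCCC, 0.307% GAAGTGAAA, 2.27% the interferon-stimulated response element, 15.7% TGACG and 29.3% CCAAT. The sequences are those of the reference strain C57BL/6, the strain of the donors, and letters in these windows say nothing of binding. Because 3′ reads were counted on that reference, H2-K1 counts do not separate donor Kb from recipient Kd. Of the 451 windows of 50 bases in the last 500 bases of the transcript, 2 in H2-K1 (0.443%), 43 in H2-D1 (9.53%) and 172 in H2-T23 (38.1%) occurred in transcripts of another gene. The H2-T23 values are therefore the least certain of the 8, and no such window was shared for B2m, Tap1, Tap2, Tapbp or Nlrc5.

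As a share of all RNA counted, class I RNA was higher in T cells than in erythroid cells of the same mouse. UMIs were summed per library and class and scaled by TMM, and the test was edgeR's quasi-likelihood test with the library as a block. H2-K1 measured 2567, 2632, 2450 and 2937 TMM-normalized CPM in T cells and 1019, 908, 914 and 1050 in erythroid cells, a 2.72-fold difference. The groups did not overlap, and log2 fold change was 1.44 ± 0.06 (SE, n = 4 libraries, edgeR adjusted p = 9.9e-07). H2-D1 measured 1491, 1648, 1714 and 1919 CPM against 736, 807, 1019 and 931 CPM, again with T cells of every library above all erythroid sums, and its log2 fold change was 0.96 ± 0.07 (edgeR adjusted p = 1.4e-05). H2-T23 was higher by 0.98 ± 0.12 on the log2 scale (edgeR adjusted p = 0.00021).

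B2m differed less. It measured 2466, 2199, 2205 and 2333 CPM in T cells and 1568, 1538, 2067 and 1569 CPM in erythroid cells, and the highest erythroid sum, that of Havcr2fl/fl replicate 1, lay close to the T cells (log2 fold change 0.46 ± 0.10, edgeR adjusted p = 0.0035). The largest difference among the members was that of the transactivator Nlrc5, at 121, 90.1, 104 and 84.1 CPM against 45.2, 29.8, 26.5 and 26.6 CPM (log2 fold change 1.64 ± 0.10, edgeR adjusted p = 4.8e-06). The transporter subunits were also higher in T cells, Tap2 by 1.22 ± 0.08 and Tap1 by 0.67 ± 0.08 on the log2 scale (edgeR adjusted p = 5.1e-06 and 0.00012). Tapbp measured 203, 164, 166 and 153 CPM in T cells and 207, 143, 171 and 159 CPM in erythroid cells and did not pass the test (log2 fold change 0.02 ± 0.08, edgeR adjusted p = 0.85).

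**Figure D1:**
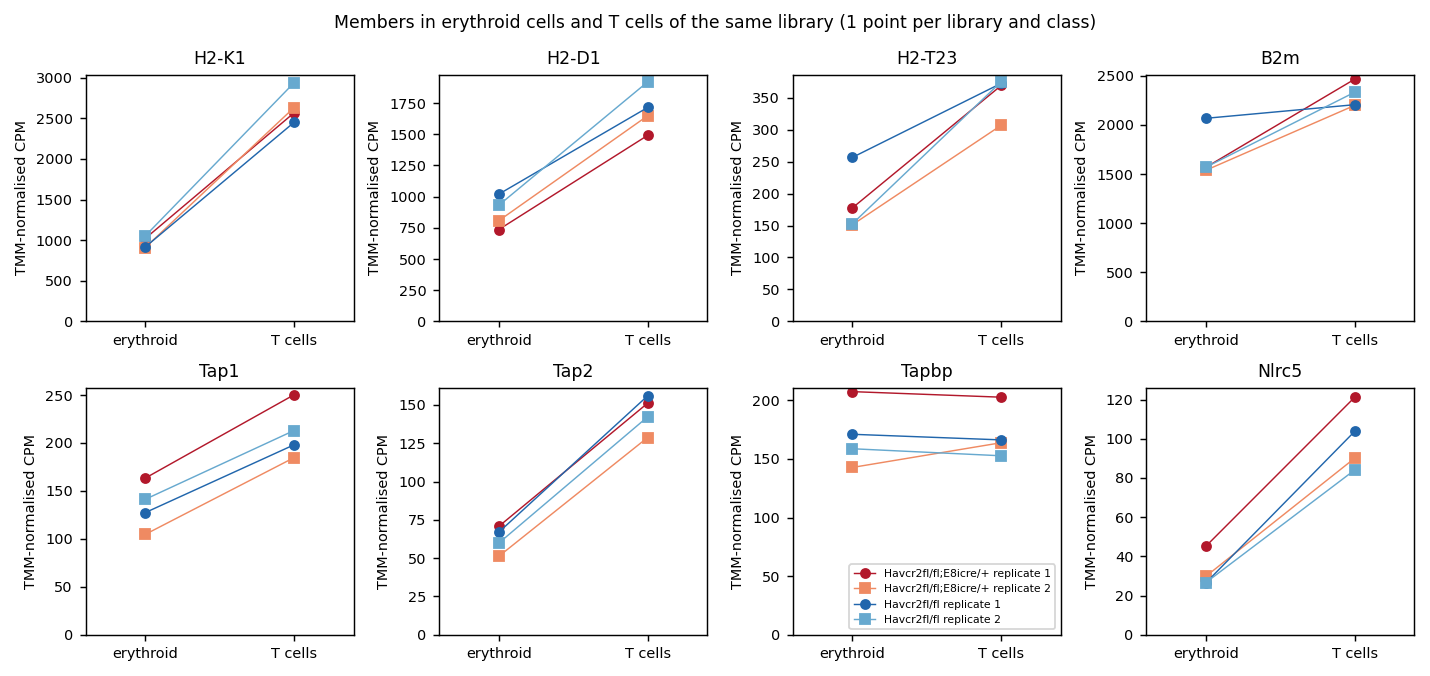
TMM-normalized CPM of each member in erythroid cells and in T cells, with 1 panel per gene, 1 point per library and class, and a line joining the classes of a library; every vertical axis starts at 0. All lines rise toward T cells for 7 members, whereas Tapbp is nearly flat.

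In all, 7 of the 8 members were called higher in T cells, where 40.9% of the 12579 genes tested were called higher and 40.4% lower (81.4% in either direction). The median log2 fold change of the members was 0.97 and that of all genes 0.02. Scaling by library totals shifted the median of all genes to 0.33, where Tapbp at 0.34 was called, unlike under the other alternatives (edgeR adjusted p = 0.016), beside that shifted median. With early erythroid-like cells alone as the erythroid class, H2-K1 was higher by 1.45 and B2m by 0.69, and Tapbp by 0.00. Per cell the order was not the same, and erythroid cells also held more gene UMIs in every library. T cells had 16.2, 19.98, 20.7 and 11.2 H2-K1 UMIs per cell and erythroid cells 26.04, 17.7, 14.9 and 17.4, with T cells higher in 2 of 4 libraries. For B2m the mean was 15.5, 16.7, 18.7 and 8.89 UMIs per T cell and 40.1, 30.0, 33.7 and 25.98 per erythroid cell. T cells were lower in every library, as they were for H2-D1, H2-T23, Tap1 and Tapbp.

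Other genes of the pathway were taken from 4 lists with 48 genes, of which 47 were in the files and 41 were tested. In T cells 24 were called higher and 11 lower, with a median log2 fold change of 0.46. Of all 12579 genes tested, 40.9% were called higher and 40.4% lower (81.4% in either direction). Among the other class I chains, 10 of 11 were higher, with H2-M3, which presents formylated peptides, higher by 2.05 ± 0.11 and H2-Q10, a secreted class I chain, by 2.20 ± 0.12. Irf2 and Irf1, which bind the interferon response elements, were higher by 2.13 ± 0.08 and 1.57 ± 0.07. Lnpep, an aminopeptidase that trims peptides, was higher by 1.95 ± 0.09 and Tapbpl, a relative of tapasin, was 2.78-fold higher. The folding and loading genes were mixed, with 2 of 5 higher and 2 lower, and the peptide supply genes were mixed too, with 6 higher and 4 lower of 13.

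Within the erythroid clusters the members separated. The stem or progenitor-like cluster, which is not counted among the erythroid cells, is given beside them. The unnamed erythroid cluster 9 is left out. Stages are ordered by their names, and no trajectory was computed. Stages were named from markers that did not include the members, and levels are given as CPM of all gene UMIs without a test, because they come from the cells that were clustered. H2-K1 measured 1525, 1458, 1461 and 1550 CPM in stem or progenitor-like cells and 1116, 914, 917 and 1027 CPM in early erythroid-like cells. It measured 842, 559, 487 and 858 CPM in intermediate and 364, 239, 175 and 292 CPM in late erythroid-like cells. In every library H2-K1 stood lower at each later stage of this order, and the late cells did not overlap with any stage before them.

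H2-D1 did not follow this course, with 756, 669, 792 and 845 CPM in early and 778, 841, 652 and 860 CPM in late erythroid-like cells. B2m measured 1577, 1271, 1647 and 1366 CPM in early, 2027, 1634, 1789 and 1821 CPM in intermediate and 1866, 1454, 1124 and 1428 CPM in late erythroid-like cells. The ratio of H2-K1 to B2m UMIs, which does not depend on the library total, was 0.56 to 0.75 in early, 0.27 to 0.47 in intermediate and 0.16 to 0.20 in late cells. The ratio of H2-K1 UMIs to B2m thus lay lower in the late cells in all 4 libraries. H2-T23 was lowest in intermediate cells, at 115, 90.6, 121 and 107 CPM, and measured 267, 216, 257 and 217 CPM in late cells, above the early cells of each library.

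The transporter genes were nearly undetected at the late stage. Tap1 measured 182, 109, 132 and 149 CPM in early and 27.3, 5.09, 14.4 and 14.9 CPM in late erythroid-like cells. Tap2 measured 81.5, 55.6, 74.8 and 66.7 CPM in early and 1.71, 3.05, 2.22 and 2.29 CPM in late cells. The late Tap2 values rested on 1, 3, 2 and 2 UMIs. Tapbp measured 27.8 to 56.4 CPM and Nlrc5 6.86 to 11.96 CPM in late cells, against 143 to 232 and 25.2 to 50.4 CPM in early cells.

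Globin transcripts filled 53.7% to 62.4% of the UMIs of late cells and at most 0.61% of early cells, which lowers the CPM of every other gene. In CPM of the UMIs other than globin, H2-K1 still stood lower in late cells, at 803, 524, 466 and 630 against 1117, 915, 922 and 1029 in early cells. On this scale H2-D1 measured 1715, 1841, 1733 and 1857 in late against 757, 669, 797 and 847 in early cells, and B2m 2988 to 4116 against 1272 to 1657. With globin counted, both genes were higher in late than in early cells in 3 libraries and lower in Havcr2fl/fl replicate 1, and without globin they were higher in all 4. Between intermediate and late cells B2m was lower in all 4 libraries with globin counted and higher in all 4 without. H2-T23 was at 469 to 682 in late cells, and Tap1 at 11.1 to 60.3 against 109 to 182 in early cells. H2-K1, Tap1, Tap2 and Tapbp were thus lower in late than in early cells on both scales in every library, whereas the direction for H2-D1 and B2m depended on whether globin was counted.

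**Figure D2:**
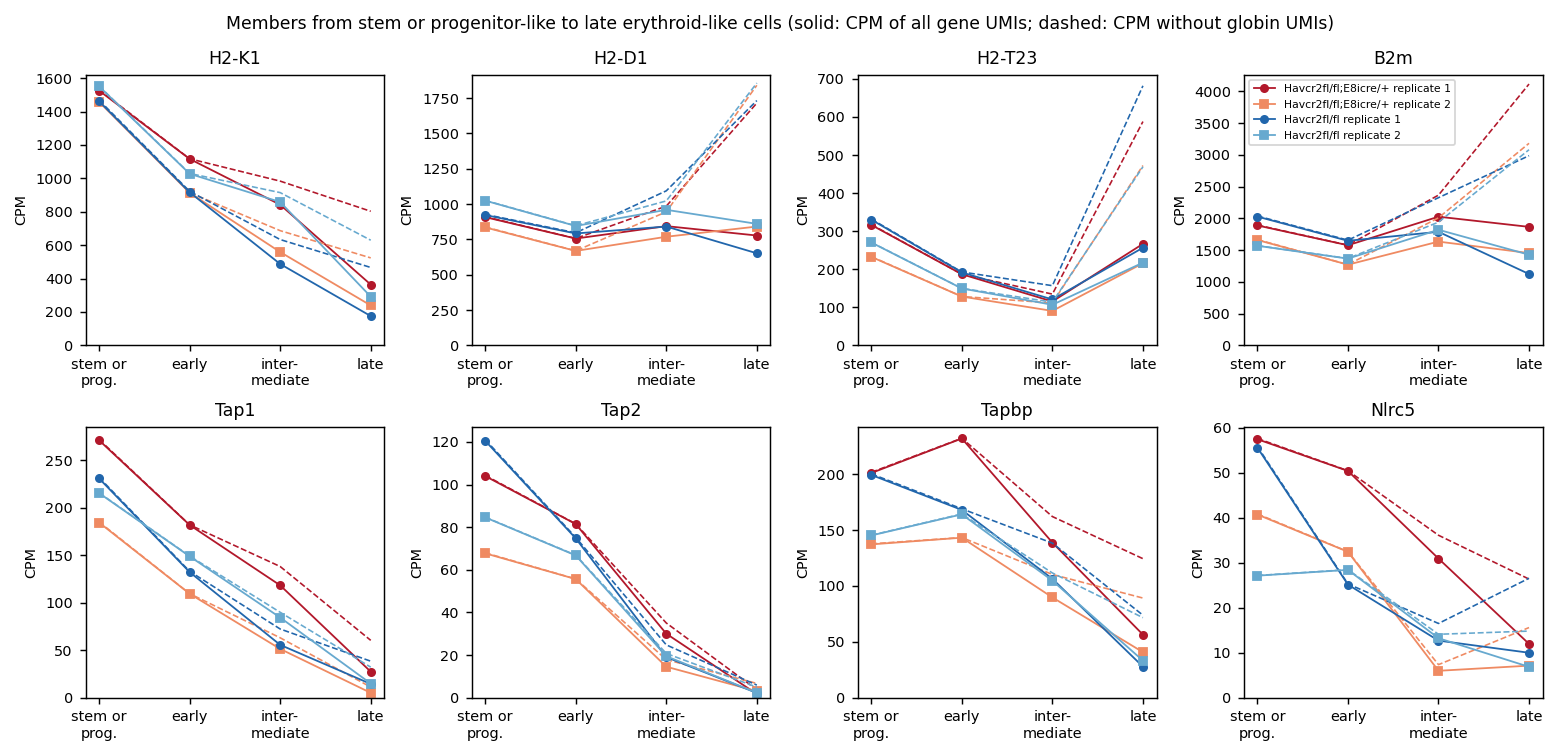
CPM of each member in stem or progenitor-like, early, intermediate and late erythroid-like cells, with 1 line per library; solid lines use all gene UMIs and dashed lines leave out globin UMIs, and every vertical axis starts at 0. H2-K1, Tap1 and Tap2 descend from stage to stage on both scales, whereas the dashed lines of H2-D1, H2-T23 and B2m climb at the late stage.

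The H-2Kb tag was found on every cell kept, with a median of 1751, 1987, 2448 and 1788 UMIs per cell. It was highest in stem or progenitor-like cells, with medians of 6516, 6559, 10903 and 4631 UMIs, and in early erythroid-like cells, with 5890, 7004, 8235 and 3580 UMIs. Among the erythroid stages, late erythroid-like cells carried the least, with 888, 763, 1151.5 and 515 UMIs. Intermediate erythroid-like cells lay between them at 1499 to 2271 UMIs. From early over intermediate to late cells the order was the same in all 4 libraries, while stem or progenitor-like cells lay above early cells in 3 of them and below in Havcr2fl/fl;E8icre/+ replicate 2.

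T cells had medians of 1565, 1933.5, 2366 and 1191 tag UMIs and all erythroid cells together 4034, 1400, 1841 and 2725.5, so that T cells were higher in 2 of 4 libraries (mean log2 difference -0.43 ± 0.98 SD, n = 4, exact sign-flip test, 2-sided p = 0.5). With 4 libraries this test cannot give a p below 0.125. The libraries in which T cells were lower were those in which early cells made up most of the erythroid class. Against early erythroid-like cells, T cells carried less tag in 4 of 4 libraries (mean log2 difference -1.79 ± 0.14 SD), and against late erythroid-like cells they carried more in 4 of 4 (1.10 ± 0.23 SD). Either of these comparisons gave the smallest exact p possible, 0.125 (n = 4).

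Tag and depth moved together. The early erythroid-like cells had a median of 35306, 54069, 64393 and 22901.5 gene UMIs and T cells 4351, 5679, 6343 and 2886. Per 1000 gene UMIs the tag measured 337, 326, 347 and 394 UMIs in T cells and 166, 133, 138 and 156 in early erythroid-like cells, the reverse of the order per cell. Late erythroid-like cells measured 196, 147, 161 and 153 tag UMIs per 1000 gene UMIs, close to early cells on this scale. Globin, which made up most gene UMIs of late cells but few of early cells, was counted in it. The tag was not scaled to the UMIs other than globin, so the likeness holds for this scale only. Among cells of 5000 to 10000 gene UMIs, T cells carried 1916, 2012.5, 2362.5 and 2064 tag UMIs and erythroid cells 1260, 1045, 1161 and 1297 (mean log2 difference 0.81 ± 0.21 SD, higher in 4 of 4 libraries, exact p = 0.125). The median depth of early erythroid-like cells lay above this window in every library, so it does not match early cells to T cells. The stages of the erythroid cells inside the window were not counted. Whether cell size or staining sets the raw tag count was not tested.

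**Figure D3:**
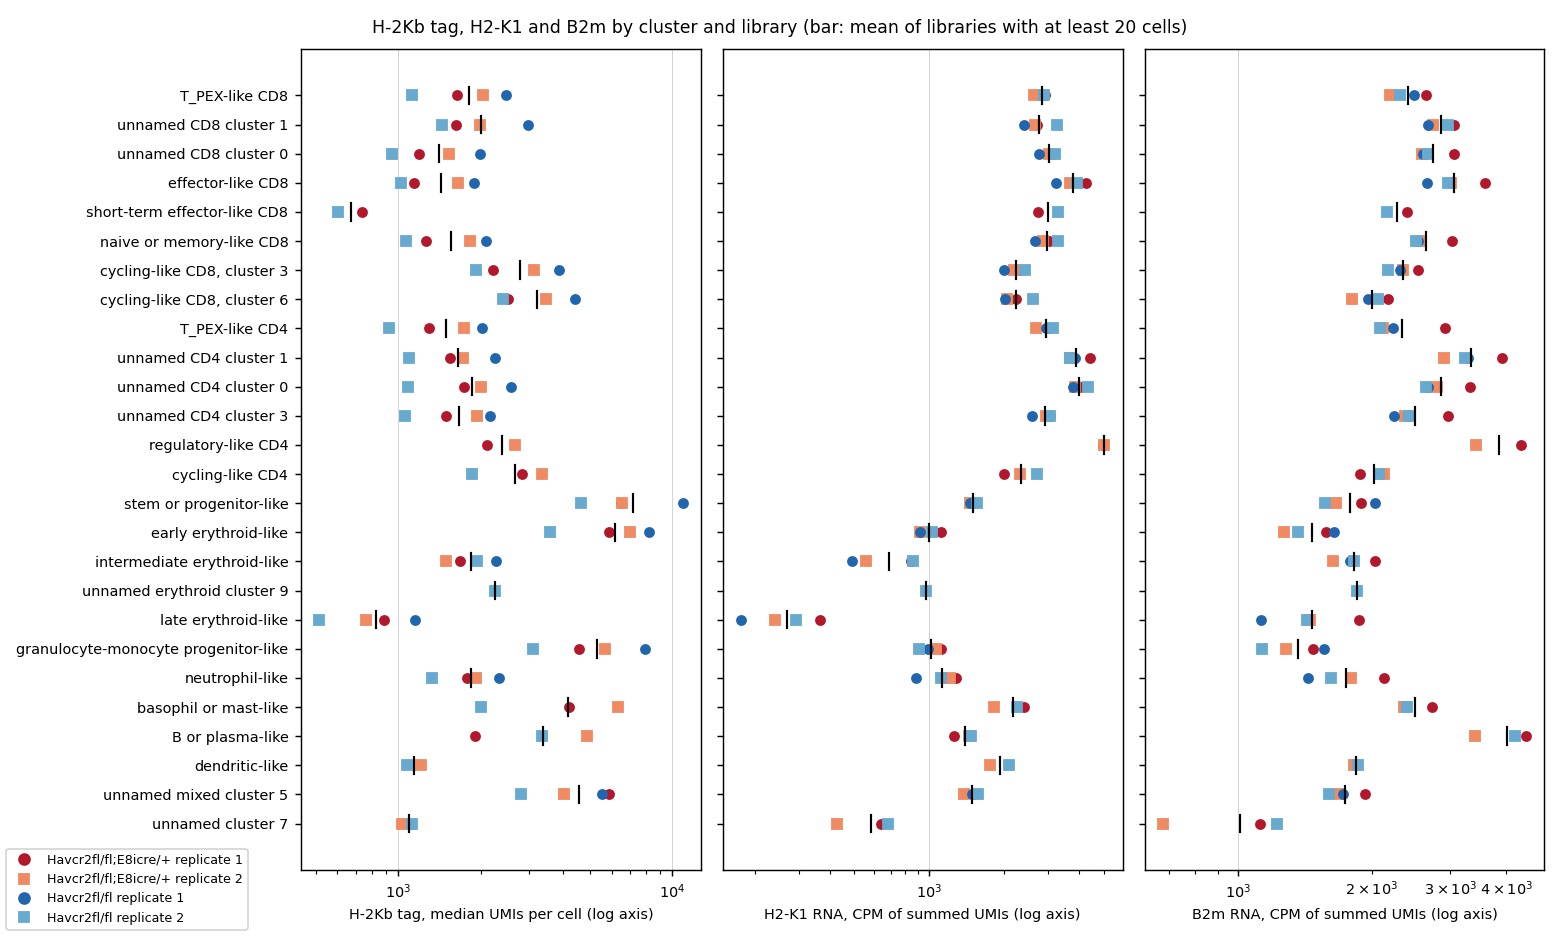
Median H-2Kb tag UMIs per cell, H2-K1 CPM and B2m CPM for each cluster, on log axes; each point is 1 library with at least 20 cells of the cluster and the bar is their mean. Stem or progenitor-like and early erythroid-like cells lie farthest right for the tag, whereas T cell clusters lie farthest right for H2-K1.

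Across 91 sums of a cluster in a library (26 clusters, at least 20 cells each), log2 mean tag correlated with log2 mean gene UMIs per cell at r = 0.90 and with log2 mean H2-K1 UMIs per cell at r = 0.82. With H2-K1 CPM, r was -0.11. Points share libraries, staining and depth, and these values describe the libraries only. Tag per cell and H2-K1 UMIs per cell thus rose together across cell types, but both are counts per cell, and the tag followed depth more closely. Tag per cell did not rise with the H2-K1 share of the transcriptome, which is scaled to depth while the tag is not. The correlation of tag per gene UMI with H2-K1 CPM was not computed.

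**Figure D4:**
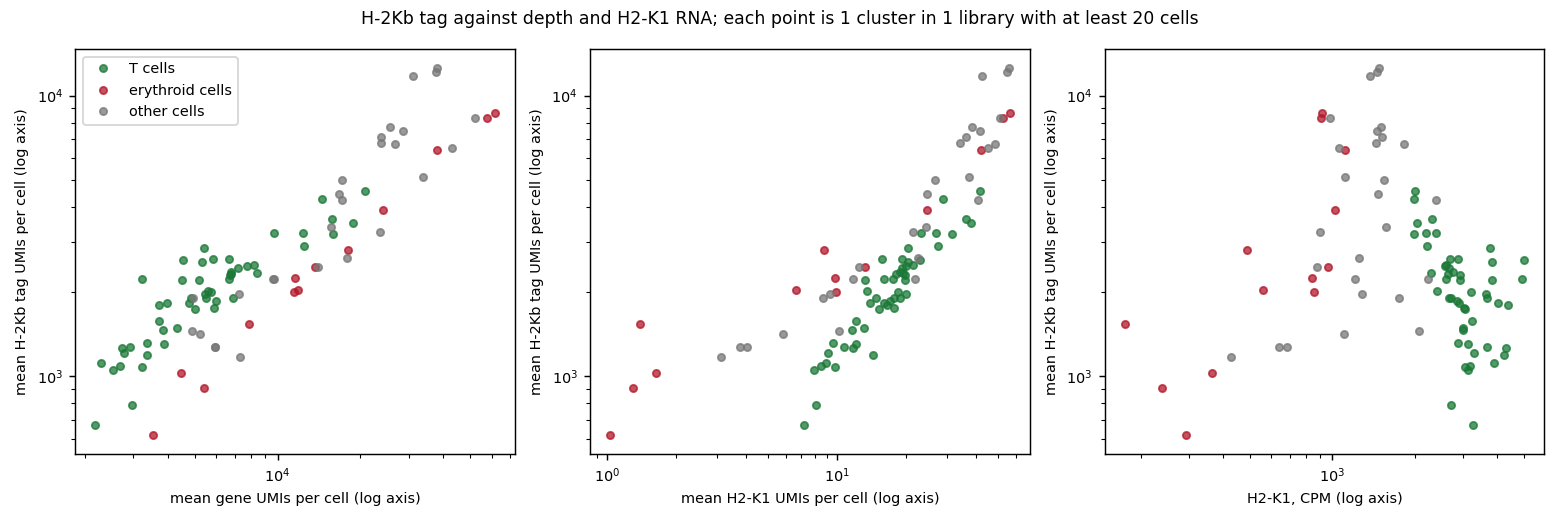
Mean H-2Kb tag UMIs per cell against mean gene UMIs per cell, mean H2-K1 UMIs per cell and H2-K1 CPM, on log axes; each point is 1 of 91 cluster sums, colored by T cells, erythroid cells and other cells. The tag climbs with the first and the second measure, whereas T cells form a separate group at high CPM and low tag in the panel for H2-K1 CPM.

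The tag per H2-K1 UMI set late erythroid-like cells apart. T cells carried 96.8, 96.8, 114 and 106 tag UMIs (median) per H2-K1 UMI (mean) of the cell, and early erythroid-like cells 140, 134, 146 and 145. In late erythroid-like cells the figure was 546, 588, 831 and 499, with 1.63, 1.30, 1.39 and 1.03 H2-K1 UMIs per cell. At least 1 H2-K1 UMI was found in 57.3%, 51.4%, 50.9% and 46.6% of the late cells and in 99.1% to 99.7% of T cells. Against all erythroid cells the log2 difference of T cells was -0.26 ± 0.44 SD (exact sign-flip test, p = 0.375, n = 4), with T cells higher in 1 of 4 libraries. Against early cells alone it was -0.45 ± 0.07 SD and against late cells alone -2.55 ± 0.26 SD, in both cases lower in 4 of 4 libraries (exact p = 0.125).

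CD8+ Tc and CD4+ Tc differed in 3 members. H2-K1 measured 2690, 2772, 2638 and 3043 TMM-normalized CPM in CD8+ Tc and 3165, 3245, 3229 and 3488 CPM in CD4+ Tc, lower in the CD8+ Tc of every library (log2 fold change -0.24 ± 0.04, n = 4, edgeR adjusted p = 0.00023). H2-D1 measured 1542, 1743, 1817 and 1988 CPM against 1904, 2076, 2299 and 2301 CPM and was lower as well (-0.28 ± 0.04, edgeR adjusted p = 0.0002). Nlrc5 went the other way, with 150, 109, 127 and 99.9 CPM in CD8+ Tc and 102, 90.5, 114 and 69.9 CPM in CD4+ Tc (0.37 ± 0.08, edgeR adjusted p = 0.0029). B2m, H2-T23, Tap1, Tap2 and Tapbp lay between -0.14 and -0.03 and did not pass the test. The 2 members called lower stand beside 12.4% of the 10872 genes tested, and the 1 called higher beside 12.3% (24.7% in either direction).

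Of the 38 other pathway genes tested between these classes, 7 were called higher and 3 lower in CD8+ Tc. Of all 10872 genes tested, 12.3% were called higher and 12.4% lower (24.7% in either direction), so the number called was near that of genes at large. Tapbpl was higher by 0.61 ± 0.07, and so were the regulator Irf1 (0.33 ± 0.06), the immunoproteasome subunit Psmb10 (0.30 ± 0.06) and the proteasome activator Psme1 (0.23 ± 0.05). Ifngr1, a chain of the interferon-γ receptor, was lower by 0.49 ± 0.06 on the log2 scale and the class I chain H2-Q4 by 0.28 ± 0.06. The median log2 fold change was 0.03 for these genes, -0.10 for the members and 0.00 for all genes. The tag was alike in size, with medians of 1504.5, 1881, 2254.5 and 1206.5 UMIs in CD8+ Tc and 1665, 1996.5, 2398 and 1139 UMIs in CD4+ Tc. The mean log2 difference was -0.06 ± 0.10 SD with 1 of 4 libraries higher (exact sign-flip test, p = 0.25, n = 4). Per 1000 gene UMIs it was -0.33 ± 0.19 SD, lower in CD8+ Tc of all 4 libraries (exact p = 0.125).

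Of the 7 CD8+ Tc clusters with at least 20 cells in every library, H2-K1 was highest in the cluster named effector-like and lowest in cycling cells. That name rests on 4 of 7 effector markers raised (Gzmk, Gzmb, Ccl5 and Prf1), with 1 among its 10 leading genes. Ifng, Ccl3 and Ccl4 were not raised in it, whereas the terminal exhaustion markers Eomes, Entpd1 and Lag3 were. The unnamed CD8 cluster 1 had 5 of these 7 effector markers raised. Effector-like CD8+ Tc had 4249, 3668, 3212 and 3914 CPM of H2-K1, and their mean of 3760 ± 437 CPM (SD, n = 4) lay above the range of the unnamed CD8 cluster 0, which followed at 3023 ± 185 CPM. Naive or memory-like cells (2950 ± 273), T_PEX-like cells (precursor exhausted, 2817 ± 134) and the unnamed CD8 cluster 1 (2750 ± 361) came next, and each of these neighbors overlapped in range. Cluster 1 had 7 of 9 markers of terminal exhaustion raised, Pdcd1, Lag3 and Havcr2 among them, but its 10 leading genes held none of the 9 and included the effector genes Ccl3 and Ccl4 and also Gzma, and it was left unnamed. The cycling clusters stood last at 2226 ± 178 and 2220 ± 270 CPM. Effector-like cells also ranked first of these 7 for B2m (3055 ± 394 CPM), Tap1 (303 ± 40.6 CPM) and Nlrc5 (202 ± 58.6 CPM), with ranges that overlapped the next cluster. H2-D1 was highest in naive or memory-like cells at 2237 ± 184 CPM and measured 1536 ± 281 CPM in cluster 1, below cycling cluster 3 (1597 ± 162 CPM). Tap1 was not low in cycling cluster 6, at 243 ± 40.3 CPM.

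The order of the tag per cell, which is not scaled to depth, differed from that of H2-K1 CPM. The cycling clusters, with the most gene UMIs, led at 3205 ± 942 and 2774 ± 878 UMIs, followed by the unnamed CD8 cluster 1 (2006 ± 680) and T_PEX-like cells (1815 ± 570), and effector-like cells had 1426 ± 410 UMIs. All neighbors in this order overlapped. On matched scales the 2 measures were closer, mainly at the ends of the order. Per 1000 gene UMIs the tag was highest in effector-like cells (367 ± 46.9 UMIs) and lowest in cycling clusters 3 (291 ± 34.0) and 6 (240 ± 40.5), again with overlap between neighbors. Between these ends the orders differed. T_PEX-like cells had rank 2 for this tag measure (361 ± 33.1) and rank 4 for H2-K1 CPM, and the unnamed CD8 cluster 0 had rank 5 (319 ± 41.6) and rank 2. This tag measure and H2-K1 CPM are both divided by gene UMIs. H2-K1 UMIs per cell were 32.2 ± 9.42 in cycling cluster 6, 22.2 ± 7.15 in cycling cluster 3 and 14.8 ± 4.31 in effector-like cells. Short-term effector-like CD8+ Tc, with 30, 18, 13 and 25 cells, had the lowest medians of the named CD8+ states, 740.5, 741.5, 1282 and 605 UMIs, at 2728, 2942, 3329 and 3276 CPM of H2-K1.

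Within CD4+ Tc, the unnamed CD4 cluster 0 (3983 ± 252 CPM) and the unnamed CD4 cluster 1 (3884 ± 354 CPM) had the most H2-K1 of the clusters with 20 cells in at least 3 libraries, apart from T_PEX-like cells (2934 ± 198), the unnamed CD4 cluster 3 (2902 ± 220) and cycling cells (2341 ± 358, n = 3). Cluster 1 had the effector genes Ccl3, Ccl4, Ccl5, Prf1 and Ifng among its 10 leading genes and had all 9 markers of terminal exhaustion raised. Regulatory-like CD4+ Tc stood above these, with 4948, 5038, 5000 and 5777 CPM of H2-K1 in 35, 53, 4 and 17 cells. Their tag, at 2115, 2657, 4939 and 1889 UMIs, was above that of all CD4+ Tc of the same library each time, although their median depth (3036, 4312, 7004 and 2453 gene UMIs) was lower in 3 of the 4 libraries. Without the regulatory-like cells, the unnamed CD4 cluster 1 led for B2m (3336 ± 423 CPM), Tap1 (325 ± 76.3 CPM) and Nlrc5 (157 ± 25.5 CPM). In the 2 libraries with at least 20 regulatory-like cells, these had 4311 and 3421 CPM of B2m and 416 and 299 CPM of Tap1.

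Of the other cells, basophil or mast-like cells had the most H2-K1, at 1824 to 2403 CPM in the 3 libraries with at least 20 of them. Granulocyte-monocyte progenitor-like cells were at 906 to 1112 CPM and neutrophil-like cells at 884 to 1284 CPM. In both, H2-D1 was near or above H2-K1, at 1091 to 1300 CPM and 1678 to 2259 CPM. B or plasma-like cells (22, 21, 2 and 72 cells) had 4439, 3406, 4551 and 4186 CPM of B2m, more than the T cells of the same library, and 1258 to 2077 CPM of H2-K1. The tag was high in granulocyte-monocyte progenitor-like cells, with medians of 4555, 5654.5, 7935 and 3106 UMIs, above the T cells of the same library.

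Within CD8+ Tc, CD4+ Tc and early and late erythroid-like cells, tag and H2-K1 RNA went together. Cells were ranked by tag and by UMIs of each gene found in at least 20% of the cells, and the rank correlation was adjusted for gene UMIs. In CD8+ Tc, H2-K1 had the highest mean correlation of 2394 genes, at 0.22 (0.20 to 0.23 over the 4 libraries), against a median of 0.02 over all genes. In the single libraries its rank was 1, 4, 4 and 2. In CD4+ Tc it was again first, of 2123 genes, at 0.34 (0.26 to 0.44). Ifi27l2a came second in CD8+ Tc at 0.20, and Tnfrsf4 (the costimulatory receptor OX40) in CD4+ Tc at 0.30. Txn1 (0.19), Gapdh (0.18) and Actb (0.18) came next in CD8+ Tc, so high values were not limited to class I genes. H2-D1, which the Ab is not directed against, was at 0.14 and 0.19, B2m at 0.11 and 0.17, and Tap2 at 0.02 and 0.11.

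In late erythroid-like cells H2-K1 ranked first of 856 genes at 0.43 (0.34 to 0.53) and B2m second at 0.39, beside a median of 0.07. The mitochondrial genes mt-Atp6 and mt-Co1 followed, each at 0.34. In early erythroid-like cells H2-K1 had rank 22 of 6987 genes at 0.30 and B2m was at -0.01, while S100a10 at 0.42 led. The rank of H2-K1 there was 18, 23 and 20 in 3 libraries and 739 in Havcr2fl/fl replicate 1, which held 44 such cells. Within single clusters of at least 50 cells the values were less even. For H2-K1 they were 0.06 to 0.11 in effector-like CD8+ Tc and 0.06 in regulatory-like CD4+ Tc (1 library), -0.01 to 0.47 in the unnamed CD4 cluster 1 and -0.06 to 0.36 in stem or progenitor-like cells, against 0.24 to 0.41 in T_PEX-like CD8+ Tc. These are correlations over cells that share a library and a staining, given as a description.

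The cells of a class were also split into 3 groups of equal size by tag per gene UMI. In CD8+ Tc, H2-K1 was 2268 ± 117 CPM (SD, n = 4 libraries) in the lowest and 3271 ± 242 CPM in the highest group, a log2 ratio of 0.53 ± 0.05. The ratio was 0.37 ± 0.09 for H2-D1 and 0.28 ± 0.02 for B2m. In CD4+ Tc the log2 ratio of H2-K1 was 0.74 ± 0.19. All 8 members were higher in the highest group of every library there, but the share of all genes that were so was not computed. In the unnamed CD8 cluster 1 the H2-K1 ratio was 0.27 ± 0.17, and Tap2 was higher in only 1 of 4 libraries. In early erythroid-like cells H2-K1 differed by 0.26 ± 0.06 and B2m by 0.02 ± 0.08, whereas in late erythroid-like cells H2-K1 differed by 2.01 ± 0.58, from 117 ± 61.6 to 421 ± 170 CPM, and B2m by 0.84 ± 0.13. Late cells of Havcr2fl/fl replicate 1 had 32.1, 304 and 233 CPM of H2-K1 in the lowest, middle and highest group, so the middle group was highest there. Globin was counted in both measures, and the groups of late cells were not remade without it. Both measures are divided by the gene UMIs of the cell, and depth differed between the groups. In CD8+ Tc the median was 6212.5, 6939, 8195 and 3363 gene UMIs in the lowest and 3783.5, 5459, 6074.5 and 2802 in the highest group. Nlrc5 was higher in the highest group of all 4 libraries there (0.29 ± 0.25), although its correlation adjusted for gene UMIs was -0.0003. The split is therefore no check of the correlations that is free of depth.

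**Figure D5:**
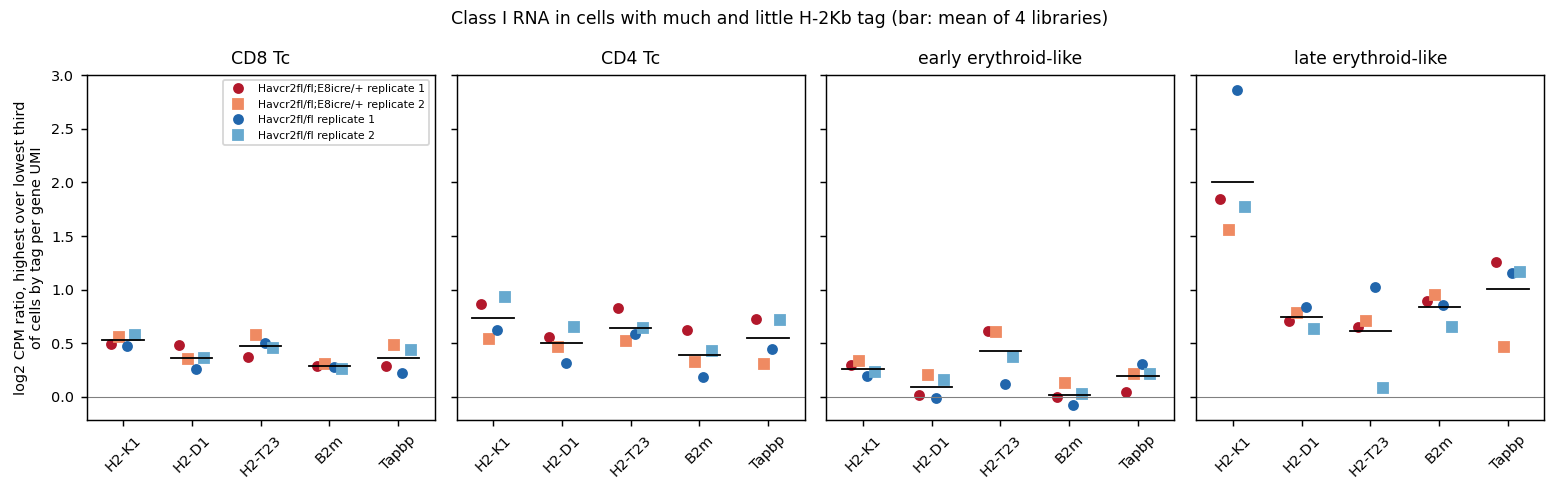
Log2 ratio of CPM in the cells with the most tag per gene UMI over those with the least, as the outer 2 of 3 groups of equal size, for 5 members in 4 cell classes; each point is 1 library and the bar is the mean of 4. H2-K1 lies above 0 in every library and class, and its ratio is widest in late erythroid-like cells.

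Cells with very little tag were few. More than 3 median absolute deviations below the library median (log2) lay 54 of 11507 cells (0.469%), of which 22 were T cells, 21 erythroid cells and 11 other cells. Of the erythroid ones 18 were late erythroid-like, which is 2.67% of that cluster. H2-K1 RNA was not missing from them: 21 of the 22 low-tag T cells had an H2-K1 UMI, and their summed H2-K1 over all low-tag cells was 1421, 1655, 1569 and 2014 CPM, against 1830, 1815, 1613 and 1330 CPM in the rest.

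The genotype of the donor was compared next, 2 libraries against 2 by their labels. Of the libraries labelled Havcr2fl/fl;E8icre/+, only replicate 2 had less Havcr2 RNA in CD8+ Tc than both controls. In CD8+ Tc, where cre is meant to act, H2-K1 measured 2600 and 2739 TMM-normalized CPM in the libraries labelled Havcr2fl/fl;E8icre/+ and 2589 and 3003 CPM in Havcr2fl/fl libraries, and the groups overlapped (log2 fold change -0.07 ± 0.25, n = 2 against 2, edgeR adjusted p = 0.999). H2-D1 measured 1491 and 1722 against 1783 and 1962 CPM without overlap but was not called (-0.22 ± 0.24, edgeR adjusted p = 0.999). None of the 8 members passed the test, beside 0.0276% of the 10872 genes tested (3 genes, with 0.0184% higher and 0.0092% lower in the libraries labelled Havcr2fl/fl;E8icre/+). The other members lay between -0.18 and 0.18 on the log2 scale. In simulated counts of this comparison with 10838 genes, the test recovered 12.5% of those with a log2 change of 1. It recovered 90.5% of those with a log2 change of 2 (10856 genes). The simulation used a fixed dispersion for all genes instead of that of these libraries. Changes as small as those seen here were not simulated, and the lack of calls does not show equal levels.

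CD4+ Tc and erythroid cells gave no call among the members either, beside 0.0104% (1 gene of 9632) and 0.0288% (3 genes of 10421) of the genes tested. The largest member difference was that of Nlrc5 in erythroid cells, at 41.0 and 26.8 CPM against 23.4 and 23.6 CPM (0.53 ± 0.23, edgeR adjusted p = 0.958). H2-D1 was at -0.21 ± 0.22 in CD4+ Tc and -0.31 ± 0.21 in erythroid cells. Of the 39, 38 and 39 other pathway genes tested in CD8+ Tc, CD4+ Tc and erythroid cells, 0 were called; over all genes 293, 295 and 497 had an unadjusted edgeR p under 0.05, and DESeq2 called 4, 5 and 12. The early erythroid-like cells made up 301 of 533, 124 of 423, 44 of 199 and 1090 of 1924 erythroid cells, so that the stages were mixed unequally over these sums. With early erythroid-like cells alone, 0 of the 8 members were called.

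The tag did not part the genotypes. In CD8+ Tc its medians were 1504.5 and 1881 UMIs against 2254.5 and 1206.5 UMIs (log2 difference 0.03, exact permutation test, 2-sided p = 1). In CD4+ Tc the difference was 0.14 and in erythroid cells 0.09, each with an exact permutation p of 1, and 2 libraries against 2 cannot give a p below 0.333. The Havcr2fl/fl libraries held the highest and the lowest median in CD8+ Tc, CD4+ Tc and early erythroid-like cells alike.

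Finally, the genes whose pattern was most like that of H2-K1 over the 91 cluster sums, among 6029 genes with a mean of at least 20 CPM, were Zfp292 (r = 0.96), Leprotl1 (0.94), the class I chain H2-Q7 (0.94), Vgll4 (0.94) and Sema4d (0.94). Of the members, Tap2 was the most alike (r = 0.92, rank 26), followed by H2-D1, Tap1 and Nlrc5 (each 0.83), H2-T23 (0.77), Tapbp (0.76) and B2m (0.75). The genes most like the tag were Uqcr11 (0.68), Snhg3, Cdca7, Myb and Rpl41 (0.64). The members were at -0.31 (H2-D1) to 0.14 (Tapbp) with the tag, which was taken per cell here and, unlike the genes, not scaled to depth.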

How the data were processed

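Spleen cells of 4 mice were profiled with 10x Genomics 3′ chemistry and the H-2Kb tag, 1 library per mouse and 2 mice per donor genotype. The authors deposited raw UMI counts per barcode for genes and for the tag, made with Cell Ranger 6.1.2 on build mm10 according to the submitters' processing notes. Of 15784 barcodes (17693991 to 55045903 gene UMIs per library), a barcode was kept as a cell if it had 500 genes and 1000 UMIs or more and no more than 10% of its UMIs were mitochondrial. Scrublet in scanpy 1.11.5 then removed 125 doublets, 1.07% of 11632 cells, and 463 were removed at the rate expected from cell numbers as an alternative.

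Libraries were integrated with Seurat 5.3.0, with the members, the tag and the other class I genes left out of the variable genes, and clusters were named from marker lists. Genes were named by membership and by the smallest adjusted p of the pathway lists. Counts were summed per library and class, filtered by filterByExpr and tested with the quasi-likelihood test of edgeR 4.0.16 (TMM, Benjamini-Hochberg threshold 0.05), with the library as a block between classes of the same mouse. DESeq2 1.42.0 and other scalings, filters and left-out libraries were alternatives, and the test was tried on simulated data. Median tag UMIs were compared with exact tests on the log2 scale. Each mouse is 1 replicate, and UMI counts limit precision by counting error only. Replicate numbers only name the mice. The members and lists were chosen with earlier results of these data known. Coordinates are GRCm38 with GENCODE M21 genes, and 99.6% of gene identifiers were matched.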

Additional observations from a re-analysis of the deposited data

Results flagged for a closer look

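The tag was also counted in the 4152 barcodes that did not pass the cell filter, which no comparison used. Their median was 1927, 691, 1322.5 and 2359.5 tag UMIs in Havcr2fl/fl;E8icre/+ replicates 1 and 2 and Havcr2fl/fl replicates 1 and 2, against 1751, 1987, 2448 and 1788 tag UMIs in the cells kept. These medians drew attention because they lie above the level that a count of 0 allows, and their source was not tested.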

How the results depend on the processing

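For the member genes, 463 recomputed values kept their direction and their side of the threshold, 2 passed the threshold newly and 31 changed sign, all of them for values that had not passed the test. The replicate block gave 0 calls between genotypes in CD8+ Tc, CD4+ Tc and erythroid cells, and a crossed block, added after seeing the data, gave 71 and 128 in CD8+ Tc and erythroid cells. Same-numbered libraries did not deviate together (correlation -0.13, -0.02 and -0.44), so the numbers were not taken as pairs. The block turned Tap1 in erythroid cells to -0.0096.

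Calls between CD8+ Tc and CD4+ Tc numbered 1575 with DESeq2 and 1758 to 2242 with 1 library left out (2682 in the report), the fewest without Havcr2fl/fl;E8icre/+ replicate 1, and between T cells and erythroid cells 9076 to 9970. Genotype calls without the filter on low counts were 98 in CD8+ Tc, 47 in CD4+ Tc and 111 in erythroid cells, against 3, 1 and 3, and with 1 library left out 1 to 13, 1 to 28 and 0 to 2. In CD4+ Tc, DESeq2 gave 5 calls and library totals, the stricter cell filter and doublets removed at the expected rate 0 each. In erythroid cells DESeq2 gave 12, library totals 33 and early cells alone 11. The causes were not tested.

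The T cell to erythroid difference of the tag changed sign per 1000 gene UMIs (1.16), in cells of 5000 to 10000 gene UMIs (0.81) and against late cells (1.10), and was -0.73 to -0.12 with 1 library left out. CD8+ Tc against CD4+ Tc was 0.017 for the mean tag. Between genotypes the tag per 1000 gene UMIs differed by -0.22 in CD8+ Tc and -0.085 in CD4+ Tc, and with 1 library left out by -0.42 to 0.48, -0.40 to 0.68 and, in erythroid cells, -0.68 to 0.85.

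B2m between CD8+ Tc and CD4+ Tc was 0.0076 without the filter on low counts, and Tap1 -0.063 to 0.0037 with 1 library left out. In erythroid cells between genotypes, H2-K1 was -0.013 with DESeq2, -0.0044 without the filter on low counts, -0.026 with the stricter cell filter, -0.020 without globin genes and -0.017 in early cells. Tap1 was -0.0066 with the stricter cell filter and -0.040 in early cells, and Tap2 0.15 with library totals. With 1 library left out, members between genotypes in CD8+ Tc were -0.17 to 0.043 (H2-K1), -0.031 to 0.070 (B2m), -0.11 to 0.22 (Tap1), -0.22 to 0.0053 (Tap2) and -0.053 to 0.38 (Nlrc5). In CD4+ Tc they were -0.023 to 0.14 (B2m), -0.19 to 0.28 (Tap1), -0.22 to 0.13 (Tap2) and -0.25 to 0.45 (Nlrc5). In erythroid cells they were -0.11 to 0.11 (H2-K1), -0.61 to 0.12 (H2-T23), -0.34 to 0.29 (Tap1), -0.28 to 0.17 (Tap2) and -0.18 to 0.34 (Tapbp).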
